A study of Nothobranchius furzeri with 168 samples.

Results

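The brains compared here came from MZCS-0403 females of the turquoise killifish Nothobranchius furzeri, 5 fish at day 217 (females 1 to 5) and 4 fish at day 287 (females 3 to 6). They are 9 libraries of a cross-sectional RNA sequencing study with a brain and a skin library from each of 84 fish of 3 strains, the short-lived GRZ-D and the longer-lived MZCS-0403 and MZM-0403. Each library is 1 fish, so age is compared between different animals, and the same number at both ages names different fish. Both age groups share strain, sex and tissue, and the labels give no treatment, genotype, sequencing batch or date. Handling shared by the fish of 1 age group therefore cannot be told apart from age. The fifth female of day 287, female 7, was left out by a measured value. Its library labelled brain correlated at r = 0.944 with the mean day 21 skin profile and at 0.341 with the brain profile, and its library labelled skin gave 0.365 and 0.954. In the 9 libraries kept, the correlation with the brain profile was 0.914 to 0.949 and with the skin profile 0.361 to 0.404, over 17879 genes. The members were chosen by these correlations, which are given as a description with no test.

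The turquoise killifish lives in ponds that dry out each season, and it is used to study ageing because adults grow old within months. GRZ-D is an inbred laboratory strain, and strains such as MZM-0403 were founded later from wild fish of wetter habitats. In fish the brain keeps forming neurons in adult life, and in killifish this capacity declines with age while glial and inflammatory genes tend to rise. None of the deposited gene IDs could be matched to a gene name, so genes are given by their IDs, and lists of neuronal, glial, immune or other cell type markers could not be applied.

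The libraries held 33785855 counts in female 2 of day 217 and 23883685 to 28086065 in the other 8. Between 23286 and 23597 genes had a count in a library, and the 10 most counted genes took 4.60% to 5.27% of its counts. As a check of the tissue, genes far higher in skin than in brain of day 21 males of the strain took 0.532% to 0.751% of the counts at day 217 and 0.584% to 0.812% at day 287. The age groups overlapped in this share. Genes far higher in brain took 19.35% to 19.65% at day 217 and 18.76% to 19.26% at day 287, so each day 287 brain was below each day 217 brain. The part of this share in the results below was not tested. In the whole series 16 libraries, both of 8 fish, went against their tissue label. They entered no fit below except where female 7 is said to be kept.

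Day 217 and day 287 brains stood apart along the main axis of variation. The first principal component of log2 CPM, counts scaled to library size, held 27.1% of the variance, with the day 217 fish between -32.0 and -19.6 and the day 287 fish between 18.7 and 45.8. The groups did not overlap on it. The second component held 16.6%, with female 5 of day 217 lowest at -54.8 and female 5 of day 287 next at -22.1. The other fish lay between 3.56 and 24.5 on it. Correlations of log2 CPM between fish of different age were 0.962 to 0.977 with a median of 0.969. Within day 217 the median was 0.976, from 0.969 to 0.984, and within day 287 it was 0.977, from 0.976 to 0.980. The spread between fish of 1 age, as the median biological coefficient of variation, was 0.159 at day 217 and 0.155 at day 287, and 0.142 at day 217 without female 5.

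**Figure D1:**
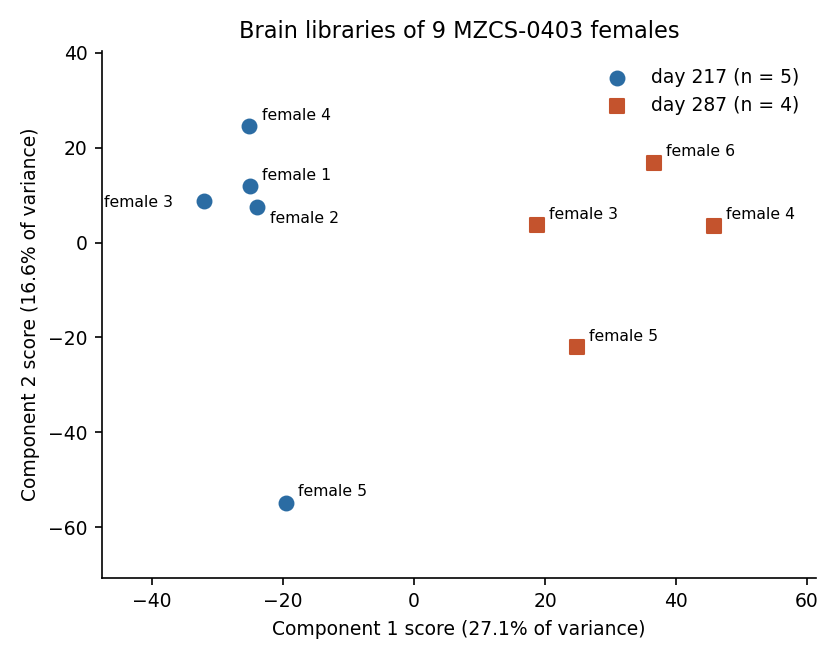
Principal component scores of the 9 brain libraries, computed on log2 CPM; the x axis is component 1 (27.1% of the variance), the y axis component 2 (16.6%), circles are day 217 and squares day 287. The ages separate along the x axis, and female 5 of day 217 lies lowest on the y axis at -54.8.

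More genes fell than rose from day 217 to day 287, and those that fell moved further. Of 20153 genes tested, 1306 (6.48%) passed an adjusted p of 0.05 in edgeR's quasi-likelihood test, 551 (2.73%) higher at day 287 and 755 (3.75%) lower. The median log2 fold change of the higher genes was 0.33 (quartiles 0.26 and 0.51), and 41 of them changed at least 2-fold. The median of the lower genes was -0.63 (quartiles -1.17 and -0.38), and 232 changed at least 2-fold. Over all genes tested the median was -0.0016, and 623 (3.09%) had a fitted change of at least 2-fold in either direction. The higher genes were the more abundant ones, with a median of 47.6 CPM over the 9 brains against 19.98 CPM for the lower genes and 15.2 CPM for all tested. The 4 day 287 brains lay entirely above the 5 day 217 brains in 526 of the 551 higher genes and entirely below them in 696 of the 755 lower genes. Over all tested genes, 5.95% lay entirely above and 5.97% entirely below. The called genes were chosen on the same 9 brains, which favours such separation.

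The number of genes called changed when single fish were left out, which also leaves fewer libraries to test. It was 918, 716, 945 and 956 without female 1, 2, 3 or 4 of day 217, and 803, 719, 769 and 636 without female 3, 4, 5 or 6 of day 287. Without female 5 of day 217 it was 1786. That fish was the lowest of the 5 in 408 of the 755 genes that fell, while each other fish was lowest in 57 to 107. With female 7 kept in the group its label gives, 35 genes were called.

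**Figure D2:**
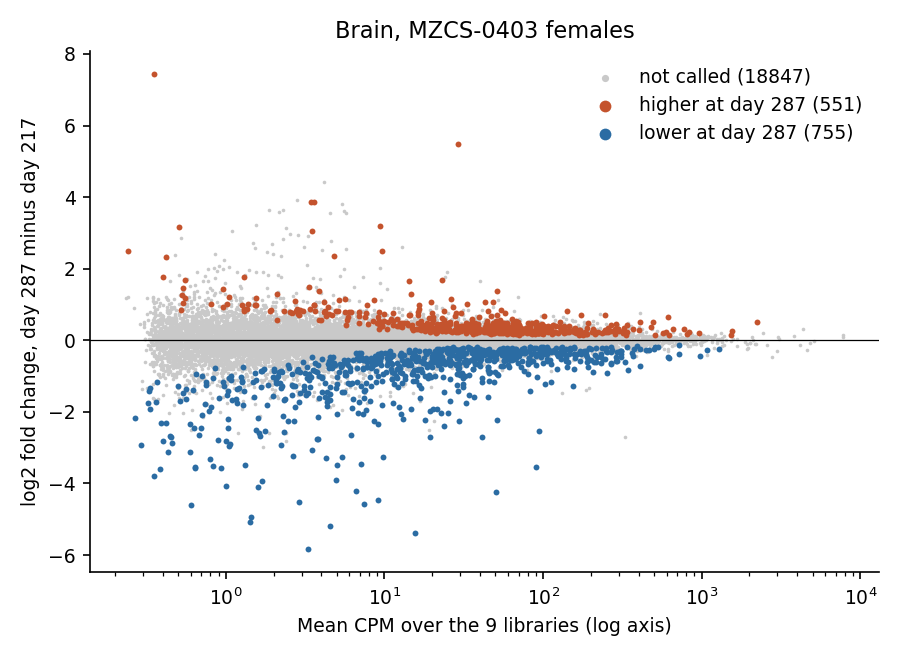
Log2 fold change (day 287 minus day 217, y axis) against mean CPM over the 9 brain libraries (x axis, log scale) for each of the 20153 genes tested. Coloured points are the 551 genes called higher and the 755 called lower; the lower genes reach further from 0, with 82 at or beyond 4-fold against 11 of the higher genes.

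Genes far higher in brain than in skin were called in both directions. Of the 1857 such genes, 1850 were tested, of which 66 rose (3.57%, against 2.73% of all genes tested) and 113 fell (6.11%, against 3.75%), with a median log2 fold change of -0.01. Of the 1116 genes far higher in skin, 910 were tested, 10 rose (1.10%) and 10 fell (1.10%), and the median was 0.05. The lists were not matched to all genes tested by level in brain. The brain list required at least 5 CPM in brain, while the skin list had no minimum there. Level bears on how readily a change is called, so these shares do not single out a tissue type. In bulk tissue, fewer cells of a type and less RNA per cell cannot be told apart.

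The larger decreases were in genes of low to moderate level. A group of 82 genes fell at least 4-fold, a threshold chosen after the values were seen, with log2 fold changes from -5.82 to -2.02. Their median level was 3.55 CPM at day 217 and 0.443 CPM at day 287. In 80 of the 82 the age groups did not overlap, which the choice of these genes favours. Over all genes tested, 5.97% had each day 287 brain below each day 217 brain. By tissue, 9 of them were among the genes far higher in brain, which make up 9.18% of all genes tested, and 0 among those far higher in skin, which make up 4.52%.

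The gene with the largest decrease under the naming rule was Nfu_g_1_025542. Its level at day 217 was 6.38, 6.47, 6.49, 5.31 and 4.59 CPM in females 1 to 5, and at day 287 it was 0, 0.17, 0.07 and 0.16 CPM in females 3 to 6, which is at most 4 counts in a library. Every day 217 brain held at least 125 counts of it. The fitted log2 fold change was -5.82 (SE 0.41, edgeR adjusted p = 7.72e-05, n = 5 and 4).

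The next was Nfu_g_1_014732. It stood at 36.8, 28.6, 24.3, 30.2 and 16.9 CPM in females 1 to 5 of day 217 and at 0.79, 0.46, 0.56 and 0.79 CPM in females 3 to 6 of day 287. The lowest day 217 brain was therefore far above the highest day 287 brain. The log2 fold change was -5.38 (SE 0.28, edgeR adjusted p = 1.30e-05, n = 5 and 4).

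Increases of this size were fewer. The 11 genes that rose at least 4-fold had a median level of 0.497 CPM at day 217 and 7.12 CPM at day 287. Over all genes tested, 5.95% had each day 287 brain above each day 217 brain. The ages did not overlap in 8 of the 11, which the choice of these genes favours. In 1 of the others the day 287 brains ran from 1.90 to 165 CPM, against at most 2.73 CPM at day 217. By the naming rule the leading gene was Nfu_g_1_005892, at 0.67, 0.24, 0.39, 0.33 and 0.81 CPM in females 1 to 5 of day 217 and at 2.45, 6.21, 17.6 and 2.26 CPM in females 3 to 6 of day 287. The groups did not overlap, but female 5 of day 287 was far above the rest. The log2 fold change was 3.87 (SE 0.69, edgeR adjusted p = 0.0127), and without that fish it was 2.89 (adjusted p = 0.0138).

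The other leading gene, Nfu_g_1_019168, was more even across fish. It stood at 1.81, 2.58, 2.59, 1.96 and 1.14 CPM in females 1 to 5 of day 217 and at 20.3, 23.9, 9.99 and 20.3 CPM in females 3 to 6 of day 287. The log2 fold change was 3.20 (SE 0.29, edgeR adjusted p = 0.000283, n = 5 and 4).

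**Figure D3:**
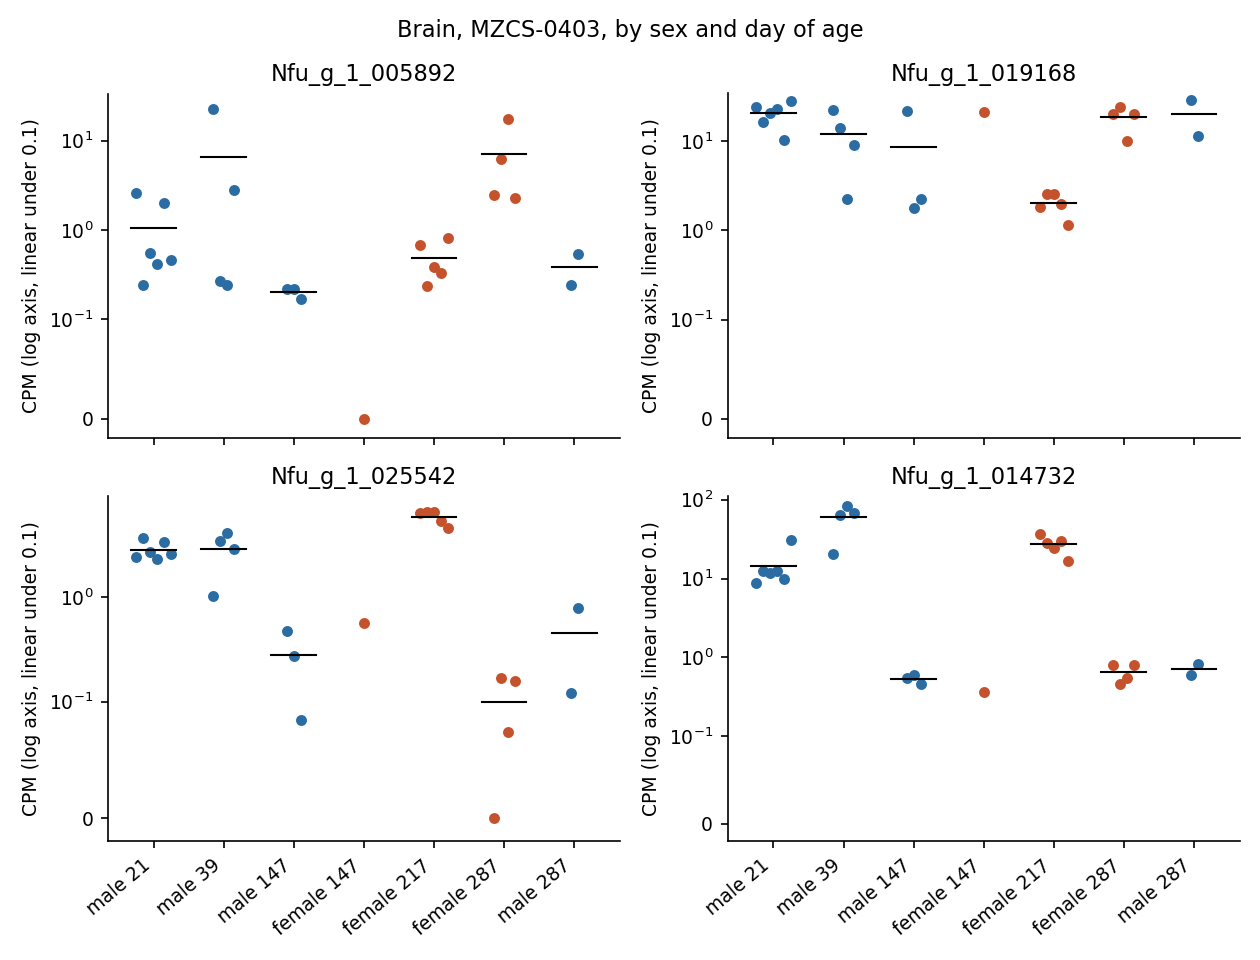
Level of the 4 named genes in each brain library of MZCS-0403 (y axis, CPM, log scale that is linear under 0.1) by sex and day of age (x axis); points are fish, red for females and blue for males, and bars are group means. Nfu_g_1_014732 is low in each brain of day 147 and day 287 and high in each brain of day 21, 39 and 217. Nfu_g_1_025542 has the same order with a small gap, a day 39 male at 1.02 CPM against a day 287 male at 0.78 CPM.

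The females were next set beside the 14 other brain groups with libraries that match their tissue label. The GRZ-D males of day 49 are absent, because each of their libraries went against its label. The low level of the strongly decreased genes was also present in MZCS-0403 at day 147, and day 217 was nearer to the younger fish and the other strains. For each gene, a group was placed by whether its mean was nearer to the day 287 or to the day 217 females on the log2(CPM + 0.5) scale. In the 3 MZCS-0403 males of day 147, 79 of the 82 genes (96.3%) were nearer to day 287. In the 1 MZCS-0403 female of day 147, 80 genes (97.6%) were. In the 2 MZCS-0403 males of day 287, 64 genes (78.0%) were, 86.6% in fish 1 and 62.2% in fish 2. In each of the other 11 brain groups, of day 21 and day 39 MZCS-0403 and all ages of MZM-0403 and GRZ-D, 1 to 10 of the 82 genes were. Among all genes with a negative fitted change, 42.6% to 56.9% were nearer to day 287 in these 14 groups. The 82 genes were chosen for the difference between day 217 and day 287, so their low level at day 287 and high level at day 217 are fixed by that choice, and the levels of the remaining groups are not.

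The levels themselves show the same order. Relative to day 217, the median over the 82 genes on the log2 scale was -1.89 in day 287 females, -1.81 in the day 147 female, -1.69 in day 147 males and -1.28 in day 287 males. It was 0.48 in day 21 males and 0.45 in day 39 males of the same strain. In MZM-0403 it was between 0.10 and 0.81, with 0.43 in its day 287 males, and in GRZ-D it was between 0.11 and 0.97. Age in days did not order the MZCS-0403 groups, because day 217 lies between day 147 and day 287.

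**Figure D4:**
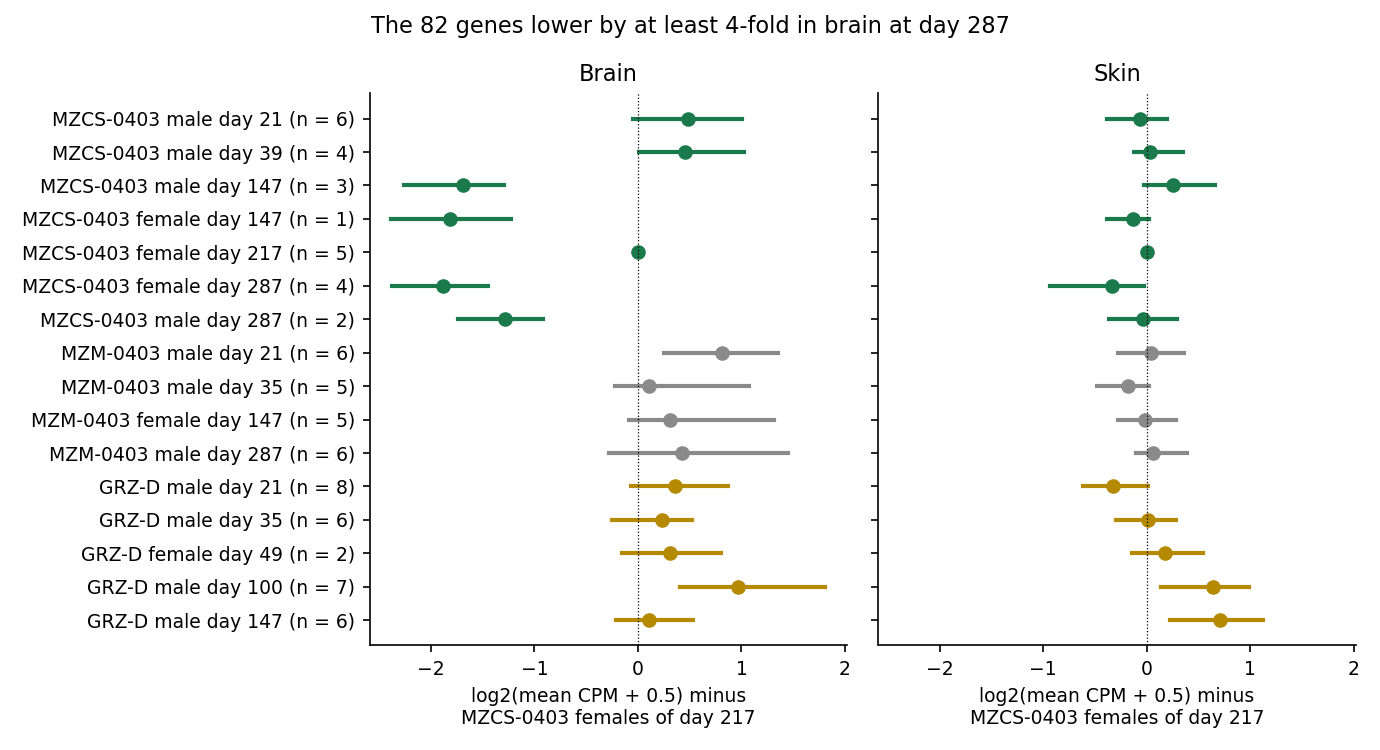
Level of the 82 genes that fell at least 4-fold, as log2(mean CPM + 0.5) of each group minus that of the day 217 MZCS-0403 females (x axis), in the 16 brain groups and the 16 skin groups (y axis); points are medians over genes, lines span the quartiles and colours mark the strain. In brain the MZCS-0403 groups of day 147 and day 287 lie between -1.89 and -1.28 and the others at or above 0. In skin the same groups lie between -0.34 and 0.26, where the added 0.5 makes differences smaller in genes low in skin.

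Nfu_g_1_014732 followed this pattern fish by fish. It was at 0.46 to 0.60 CPM in the brains of the 3 day 147 males, 0.36 CPM in the day 147 female and 0.60 and 0.83 CPM in the 2 day 287 males. It was at 20.7 to 83.7 CPM in the 4 day 39 males and at 8.73 to 30.8 CPM in the 6 day 21 males. In the brains of the other strains it ran from 2.48 to 147 CPM, so each of them was above each MZCS-0403 brain of day 147 and day 287. Nfu_g_1_025542 was at 0.08 to 0.47 CPM in the day 147 males, 0.57 CPM in the day 147 female and 0.12 and 0.78 CPM in the day 287 males. In the day 21 and day 39 males it was at 1.02 to 4.11 CPM, so these groups did not overlap with the older ones either. Its level at day 217, 4.59 to 6.49 CPM, was higher than in each of these.

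For Nfu_g_1_019168 the mean at day 217, 2.01 CPM, was the lowest of the 16 brain groups. In the brains of GRZ-D it stood at 10.3 to 26.9 CPM. In MZM-0403 it was at 3.19 to 5.14 CPM in day 147 females and 3.96 to 6.27 CPM in day 287 males, below each GRZ-D brain. In the younger MZM-0403 males it was at 7.56 to 17.4 CPM at day 21 and 2.38 to 22.5 CPM at day 35, which overlap with GRZ-D. Within MZCS-0403 it was at 21.2 CPM in the day 147 female and at 11.5 and 29.1 CPM in the 2 day 287 males. Of the day 147 males, 1 was at 21.8 CPM and the other 2 at 1.79 and 2.24 CPM, and the 4 day 39 males ran from 2.27 to 22.5 CPM. High and low fish thus occurred within 1 age and sex. Within MZCS-0403, Nfu_g_1_005892 was at most 0.54 CPM in the day 147 fish and the day 287 males, and it reached 22.6 CPM in 1 of the 4 day 39 males. In MZM-0403 it reached 8.73 CPM in a day 35 male, 5.29 CPM in a day 147 female and 5.97 CPM in a day 287 male.

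The pattern held for part of the wider list of 755 genes that fell. Nearer to the day 287 level were 67.7% of them in day 147 males, 73.6% in the day 147 female and 72.1% in day 287 males, against 22.1% in day 21 and 45.0% in day 39 males of the strain and 17.4% to 41.1% in the other strains. In 263 of the 755 genes (34.8%) each day 217 brain was above each of the 10 other MZCS-0403 brains of day 147 or later, and in 57 of the 82. Over all genes tested, 302 (1.5%) showed this order. The 10 brains include the 4 day 287 females used to choose both lists, which favours this order. In 696 of the 755 genes those 4 brains lay entirely below the day 217 brains, against 5.97% of all genes tested. For 446 of the 755 (59.1%) the lowest of the 16 brain groups was an MZCS-0403 group of day 147 or day 287, against 21.9% of all genes tested. These 446 include 173 genes (22.9% of the 755) in which it was the day 287 females, against 3.36% of all genes tested. The choice of the 755 genes favours that order, and so it also raises the count of 446.

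The 551 genes that rose were placed otherwise. Nearer to the day 287 level were 78.9% of them in MZCS-0403 males of day 287, 57.2% in the day 147 female and 38.1% in day 147 males. Among all genes with a positive fitted change the shares were 58.1%, 53.1% and 47.9%, so the share in the day 147 female was near that of all genes. In 82 of the 551 (14.9%) each day 217 brain was below each of the 10 other brains of that age range, against 0.734% of all genes tested. Day 287 females were the highest of the 16 brain groups in 107 genes (19.4%, against 3.86% of all) and day 217 females the lowest in 119 (21.6%, against 4.25%). These list members were chosen for a difference between the same females, which favours such extremes. In MZM-0403 males of day 287, 40.8% of the higher genes and 31.1% of the lower genes were nearer to the day 287 females. Among all genes with a positive or a negative fitted change, the shares in that group were 44.4% and 44.2%. Sex was not tested, since only 2 MZCS-0403 males of day 287 entered and none of day 217.

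Age changes in fish that share no library with these females were set beside theirs. In MZCS-0403 males, day 147 against day 39 (3 and 4 fish), 1846 of 20507 genes tested (9.0%) rose and 2453 (12%) fell. Of the 82 genes, 81 were tested there, 69 fell and 0 rose, with a median log2 fold change of -3.51. Of the 755 genes, 752 were tested, 233 fell and 80 rose. The named genes had changes of -6.79 (edgeR adjusted p = 0.000796) in Nfu_g_1_014732 and -3.32 (adjusted p = 0.0092) in Nfu_g_1_025542. In males of day 39 against day 21, where 20.8% rose and 17.9% fell, 11 of the 82 rose and 13 fell. Of the 755 genes, 753 were tested there, 280 fell and 73 rose. In males of the strain, 69 of the 81 genes were thus called lower at day 147 than at day 39, but only 233 of the 752. The day 147 and day 39 males are the same fish that were placed above.

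In the age comparison made in each of the other strains, the 82 genes did not show such counts. In MZM-0403 males, day 287 against day 35, where 2433 of 20324 genes (12%) rose and 13.1% fell, 8 of the 79 tested rose and 3 fell, with a median of 0.31. In GRZ-D males, day 147 against day 35, where 23.0% rose and 22.0% fell, 9 of 80 rose and 18 fell, with a median of -0.09. These end points leave out a higher level at day 100. Relative to the day 217 females, the median over the 82 genes in GRZ-D males was 0.23 at day 35, 0.97 at day 100 and 0.11 at day 147. Nfu_g_1_014732 was at 64.8 to 147 CPM in the day 100 males and 5.78 to 14.7 CPM in the day 147 males. The step from day 100 to day 147 was not tested. Of the 551 genes that rose in the females, 211 of the 546 tested (38.6%) rose in GRZ-D from day 35 to day 147 and 71 fell. In MZM-0403 males 60 of these 546 genes rose and 90 fell, and in MZCS-0403 males of day 147 46 of 547 rose and 96 fell. The share of the genes called higher that also rose in GRZ-D was 36.5% to 48.1% when each of the 9 females was left out in turn, while its count ran from 112 to 279.

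Skin of the same 9 fish changed in more genes than brain. In skin 6434 of 18392 genes (35.0%) were called, 3124 (17.0%) higher and 3310 (18%) lower at day 287. Of the 551 genes that rose in brain, 513 were tested in skin, and 192 of them (37.4%) rose and 32 fell. Of the 755 that fell in brain, 660 were tested in skin, and 132 fell and 104 rose. Between 105 and 220 genes rose in both when each fish was left out of the brain comparison in turn.

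The age change itself was tested for a difference between the tissues. The reported test had no term for the fish, so the brain and skin libraries of a fish were treated as independent. The age change differed in 5406 of 21260 genes (25.4%), more positive in brain in 2656 (12.5%) and more negative in 2750 (12.9%). Of the 2656, 1975 were called lower in skin and not called in brain. Of the 2750, 1981 were called higher in skin and not called in brain. Of the 755 genes that fell in brain the difference was called in 397, of which 366 were more negative in brain. The difference was called in all 104 genes called lower in brain and higher in skin, which those opposite calls on the same libraries favour. Of the 551 that rose in brain it was called in 193, 120 more positive in brain and 73 more negative. These 73 were also called higher in skin. Among the 82 genes the difference was called in 53, and 52 of these were more negative in brain. The lists of 755, 551 and 82 genes were chosen on the same brain libraries. That choice favours a difference in the direction of the brain change. In skin, 62 of the 82 were tested, 28 fell and 3 rose, with a median log2 fold change of -0.76. The median skin level of all 82 relative to day 217 was -0.34 at day 287, but -0.13 in the day 147 female and 0.26 in day 147 males, unlike in brain.

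**Figure D5:**
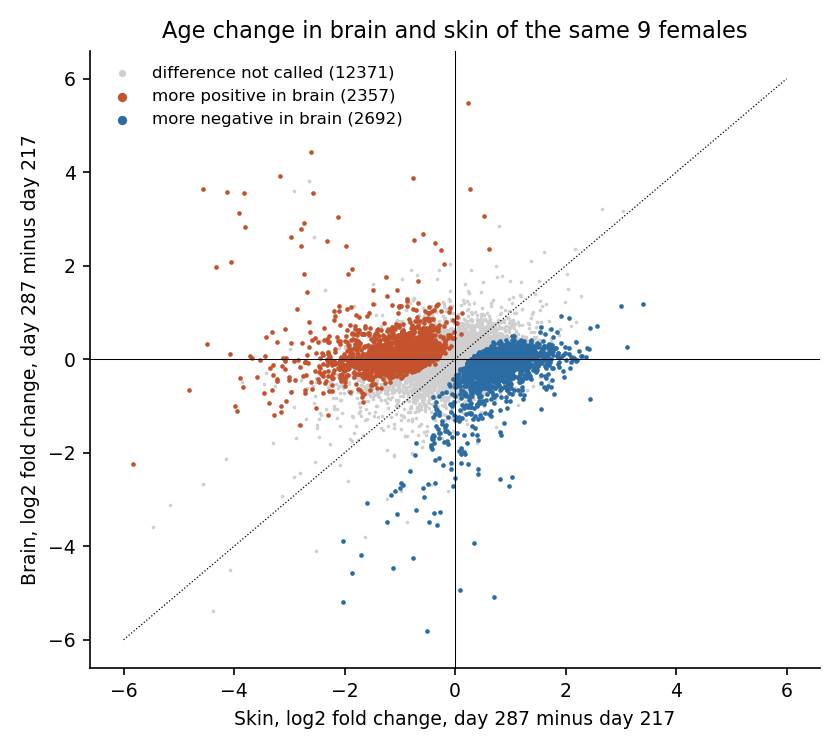
Log2 fold change from day 217 to day 287 in brain (y axis) against skin (x axis) of the same 9 females, for genes tested in both tissues; colours mark genes whose change differed between the tissues, and the dotted line marks equal change. Some genes with large decreases in brain lie near 0 in skin and others fall there too. Of the 82 genes that fell at least 4-fold in brain, 62 were tested in skin. Of these, 28 were called lower, 3 higher and 31 not called.

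The named genes differed in this respect. Nfu_g_1_014732 also fell in skin, from 22.2 to 31.9 CPM at day 217 to 0.69 to 2.37 CPM at day 287 (log2 -4.37, edgeR adjusted p = 3.67e-05), and its difference between tissues was not called (log2 -1.01, SE 0.43, adjusted p = 0.0913). At day 147, however, MZCS-0403 skin held it at 22.6 to 55.7 CPM in the males and 19.9 CPM in the female, while the brains of the same fish were under 1 CPM. Nfu_g_1_019168 rose in skin as well, by 2.66 on the log2 scale (adjusted p = 0.000211), and its difference of 0.53 (SE 0.41) was not called (adjusted p = 0.372). Nfu_g_1_025542 was at 0.84 to 1.84 CPM in skin at day 217 and 0.65 to 1.09 CPM at day 287, which overlap. Its skin change of -0.52 did not pass (adjusted p = 0.185), and the difference of -5.30 (SE 0.52) did (adjusted p = 7.81e-06). The change of Nfu_g_1_005892 in skin was -0.75 (adjusted p = 0.0819), and the difference was 4.61 (SE 0.77, adjusted p = 0.000482).

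Genes with at least 5 CPM in brain were also ranked by the size of the tissue difference. Among these Nfu_g_1_013796 had the most positive difference, 8.59 (SE 1.97, edgeR adjusted p = 0.00474). In brain it was at 9.29, 9.63, 2.70 and 0.36 CPM at day 287 and at 0.26 to 1.8 CPM at day 217, which overlap, and the brain change did not pass (adjusted p = 0.0808). In skin 2 of the 5 day 217 fish, females 4 and 5, held 4.54 and 11 CPM, while each day 287 fish held at most 2 counts, so the fitted difference is not a bound. Without female 5 of day 217 it was 7.94.

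Nfu_g_1_020339, with a difference of 7.36 (adjusted p = 0.028), was at 36.2 CPM in the brain of female 6 of day 287 and at most 2.20 CPM in the other 8 brains. In skin it reached 100.2 CPM in female 3 of day 217. The difference was 1.51 without female 6 of day 287 (adjusted p = 0.771), 5.68 without female 3 of day 217 (adjusted p = 0.0977) and 7.10 without female 2 of day 217 (adjusted p = 0.0568). Without female 4 of day 287 it was 9.27, and without female 5 of day 217 it was 8.60. With the fish as a block it was 4.70 (adjusted p = 0.231).

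On the negative side, Nfu_g_1_025542 led, as described above, and Nfu_g_1_018958 followed at -4.99 (SE 0.86, edgeR adjusted p = 0.00279). In brain Nfu_g_1_018958 was at 7.27 to 10.1 CPM at day 217 and 4.60 to 8.18 CPM at day 287, and the change of -0.41 did not pass (adjusted p = 0.180). In skin it had 0 counts in each day 217 fish and 1 to 3 counts in each day 287 fish. No fold change in skin can be given from such counts, and the difference rests on them.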

How the data were processed

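Total RNA was extracted from brain and skin of each fish and made into TruSeq RNA v2 libraries, per the labels' protocols. Per the submitters' processing notes, bcl2fastq 1.8.4, STAR 2.5.1b and featureCounts 1.5.0 were used; the genome build, the annotation and the strand setting are not given in the sources used here. The authors deposited raw counts per gene, 26739 IDs, of which 752 had no count, and 0 IDs matched a RefSeq table. Overlapping and antisense genes may therefore share counts.

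Libraries were grouped by their labels, and 16 that resembled the other tissue were left out. The deposited counts were fitted by edgeR 4.0.16 under R 4.3.3 (TMM, robust quasi-likelihood F-tests, 2-sided), each comparison on its own libraries. A filter at a minimum count of 10 left 20153 genes in brain and removed 0.0625% of the counts. Calls are at a Benjamini-Hochberg adjusted p under 0.05 over all genes tested. The SE is the log2 fold change divided by the square root of F. CPM are scaled over the 76 brain or the matching skin libraries. Genes far higher in 1 tissue differ by at least 4 on the log2 scale with at least 5 CPM in the higher one. Floors of 3 counts cover counting error only.

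Named genes are the first 2 in each direction by fold change among called genes with no overlap and at least 5 CPM in the higher group, and for the tissue difference by its size, with at least 5 CPM in brain. Members and lists were chosen with earlier results of these data known. Brain and skin come from the same fish, and their deviations from the group means correlated at 0.136 to 0.362. Alternatives were DESeq2 1.42.0, voom (limma 3.58.1), another scaling, no filter, a fit of all brain libraries, female 7 kept, a block, and each fish left out.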

Additional observations from a re-analysis of the deposited data

Results flagged for a closer look

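Of 44 groups of 4 or 5 values examined for 1 value far from the others, 5 had one. The cutoff has a nominal rate of about 1 in 20 for normally distributed values. Many of the groups are CPM of genes named for large differences in these same libraries. That rate is therefore no baseline for the 5 found. The total count of female 2 of day 217, 33785855, stood above the other 4 brains of its group. On the second principal component, female 5 of day 217 stood at -54.8. Nfu_g_1_018958 was at 7.27 CPM in the brain of female 5 of day 217, below the other 4. Nfu_g_1_020339 was at 36.2 CPM in the brain of female 6 of day 287 and at 100.2 CPM in the skin of female 3 of day 217, in each case above the other fish of that group.

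The change from day 217 to day 287 differed between brain and skin in 5406 genes by the interaction test. Among the named genes this difference, brain minus skin on the log2 scale, was 4.61 in Nfu_g_1_005892, 8.59 in Nfu_g_1_013796, 7.36 in Nfu_g_1_020339, -5.30 in Nfu_g_1_025542 and -4.99 in Nfu_g_1_018958.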

How the results depend on the processing

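The count of 1306 genes called in brain was 2360 with DESeq2, 2106 with voom, 1294 with another scaling, 1143 without the filter and 1767 in 1 fit of all matching brain libraries. Of the 1306 genes, 1301, 1290, 1285, 1129 and 986 were called in the same direction under these settings, in that order. The 1767 are therefore in part other genes. The count was 636 to 1786 when each fish was left out. With female 7 kept it was 35 (2324 at an unadjusted p under 0.05), against 4648 unadjusted in the reported fit. Fish numbers shared across ages name different animals, and their deviations correlated at 0.04, -0.04 and 0.20. Fish of unlike number were not correlated for comparison, so these values cannot decide whether fish of the same number share an effect. With the number as a replicate block, 47 genes were called (2452 unadjusted). The 82 genes lower by at least 4-fold became 13 with female 7 kept, 21 with that block and 66 to 87 with each fish left out. The percent of these genes nearer the day 287 level in day 147 males was 100 with female 7 kept, 89.8 in 1 fit of all matching brain libraries and 95.5 to 98.5 with each fish left out. The 5406 genes that differed between tissues were 3713 to 6200 with each fish left out and 5366 with the fish as a block, which ended the call of Nfu_g_1_020339 and of no other named gene.

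Of 120 values of the named genes under the alternatives, 10 no longer passed and 0 changed direction. Nfu_g_1_005892 and Nfu_g_1_025542 did not pass with female 7 kept or with the number block (highest adjusted p 0.0925 and 0.0633), and Nfu_g_1_013796 did not pass with voom (adjusted p = 0.136). Groups of 4 and 5 fish, and genes under 1 CPM with few counts, limit the precision. Counts of lower genes shared with MZCS-0403 males also moved when each female was left out. For day 39 against day 21, the 280 that fell there became 155 to 441, and the 73 that rose 35 to 85. For day 147 against day 39, the 233 became 159 to 355, and the 80 became 30 to 100. The shares that fell were 34.2% to 40.3% and 32.4% to 39.8% of the genes called lower. The cause of these changes with the setting was not tested.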
